A study of Solanum lycopersicum with 12 samples.

Results

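Leaves of tomato (Solanum lycopersicum) plants exposed to salinity and heat at the same time, called the combination here, were compared with leaves of control plants. The comparison took the 3 libraries labelled with both stresses and the 3 labelled control, chosen by treatment label alone, which is 6 of the 12 RNA sequencing libraries of the study. The other libraries, 3 of salinity alone and 3 of heat alone, are given beside them where they help to place the combination. RNA came from frozen leaves and was enriched for messenger RNA. The salt concentration, the temperature, the duration, the cultivar, the plant age and the number of plants per library are not given in the sources used here, and nothing states that libraries of a group came from separate plants, so the p-values measure only the spread between these libraries.

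Salinity limits water uptake and loads leaves with sodium and chloride, and plants are known to answer it with abscisic acid signalling, stomatal closure and compatible solutes such as proline. Heat unfolds proteins, which releases heat shock factors that switch on chaperone genes, and it raises transpiration as stomata open to cool the leaf. Photosynthesis is sensitive to both, and the reactive oxygen formed when it is disturbed is removed in part by the ascorbate cycle. The study set out to characterise what the 2 stresses do together. The deposited table identifies transcripts by gene model IDs of the tomato annotation and does not pair them with names, and the reference table used here matched none of them, so results are given by level, size of change, position and behaviour in the other groups, and leaf marker genes could not be checked.

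The control libraries held between 56281339 and 72655758 counts and the combination libraries between 64418783 and 78005645. Of 34075 gene models, 20717 had enough counts to be tested. Within the combination, replicates 1 and 3 had a Pearson correlation of log2 CPM (CPM, counts scaled to a common library size with TMM factors) of 0.984, and replicate 2 correlated with them at 0.967 and 0.969, whereas the 3 control pairs lay between 0.977 and 0.984. Across the 2 groups the 9 pairs lay between 0.919 and 0.943. Replicate 2 of the combination thus stood somewhat apart. Among 11588 gene models whose mean reached 5 CPM, 324 were more than 2-fold away in replicate 2 from the mean of the other two libraries on the log2(CPM + 0.5) scale, compared with 110 for replicate 1 and 108 for replicate 3. Such a library was not particular to the combination. For replicates 1, 2 and 3 the numbers were 67, 52 and 129 in control, 433, 228 and 200 in salinity, and 71, 237 and 168 in heat. The biological coefficient of variation, estimated within each group, was 28.1% in the combination and 21.0% in control.

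Leaf transcripts were spread over more gene models in the combination than in control. In control, 125, 129 and 113 gene models were enough to hold 50% of the counts of replicates 1, 2 and 3. In the combination this took 269, 197 and 231 gene models. The groups did not overlap (232 ± 36.0 compared with 122 ± 8.33, mean ± SD, n = 3 each; two-sided exact permutation test, p = 0.1, the smallest value that 3 libraries against 3 allow). Thinned to the smallest library of 56281339 counts, the combination libraries had 23059, 22770 and 22748 gene models with at least 1 count, and the control libraries had 22013, 22283 and 22098 (22859 ± 174 compared with 22131 ± 138, mean ± SD, n = 3 each; exact permutation test, p = 0.1). The heat libraries resembled the combination in both measures, with 251, 252 and 233 gene models for 50% of the counts and between 22769 and 23005 detected. The salinity libraries needed 196, 88 and 134 gene models and had between 21756 and 22568 detected.

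With TMM factors and all libraries, about as many transcripts were called higher as lower in the combination. In the quasi-likelihood test of edgeR, 6739 of the 20717 tested gene models (32.5%) had a Benjamini-Hochberg adjusted p under 0.05 and are described as called. Of these, 3621 (17.5% of those tested) were higher and 3118 (15.1%) lower in the combination. The balance of directions depended on scaling and on 1 library. Increases made up 53.7% of the calls, 77.8% with total counts in place of scaling factors and 49.9% with DESeq2 size factors. The median log2 fold change over everything tested was 0.03, and 0.32 with total counts. Without replicate 2 of the combination, 2790 gene models were called higher and 3386 lower (45.2% increases).

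Most called changes were moderate. The median log2 fold change was 1.09 among gene models called higher and -1.04 among those called lower. A change of at least 4-fold was found for 693 higher and 515 lower gene models. At 16-fold or more there were 143 increases and 91 decreases, and at 64-fold or more 50 and 21. Many of the largest changes were of gene models near 0 counts in one group. With more than 3 counts in each group, 60 increases and 69 decreases reached 16-fold, and among gene models with a mean of 5 CPM or more, 146 increases and 146 decreases reached 4-fold. All 3 combination libraries lay above all 3 control libraries in 3569 of the called gene models and below them in 3015, which leaves 155 with overlapping groups. The test favours such separation. Of all 20717 tested gene models, 5181 lay above and 4400 (21.2%) below, beside the 32.5% that were called.

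**Figure D1:**
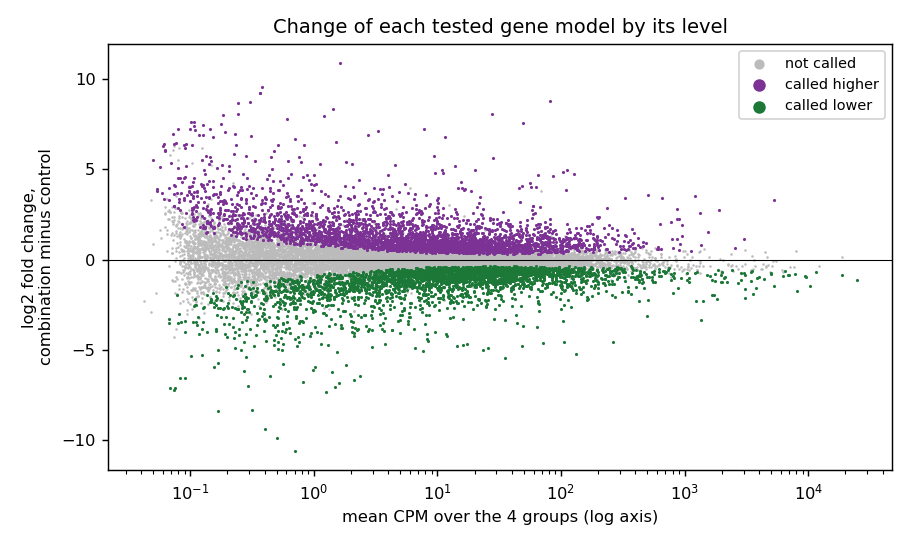
Log2 fold change of the combination against control (vertical axis) for the 20717 tested gene models, by their mean CPM over the 4 groups (horizontal log axis). Purple points are the 3621 called higher, green points the 3118 called lower and grey points those not called. At the right, above 1000 CPM, green points outnumber purple ones by 56 to 9.

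Among the most abundant leaf transcripts, decreases outnumbered increases, and at low levels increases outnumbered decreases. Of the 132 gene models with a mean over 1000 CPM across the 4 groups, 56 (42.4%) were called lower and 9 (6.82%) higher. In the range from 100 to 1000 CPM, 300 of 1175 (25.5%) were lower and 189 (16.1%) higher. Between 10 and 100 CPM both directions were about as common, with 18.9% lower and 18.5% higher of 7212. From 1 to 10 CPM, 12.8% of 7891 were lower and 17.7% higher, and from 0.1 to 1 CPM 379 of 4029 were lower and 645 higher. The share called higher thus hardly varied below 1000 CPM, while the share called lower rose with level. Calls at low levels were of larger changes. The median absolute log2 fold change among calls was 2.13 from 0.1 to 1 CPM and 0.80 from 10 to 100 CPM. A difference in shares between levels thus cannot be told apart from a difference in what the test can call. These shares by level were computed only with TMM factors and all libraries.

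Decreases also outnumbered increases when abundant gene models were chosen by the salinity and heat libraries. Those libraries are outside the contrast but share its scaling factors and its estimate of the spread. Among the 100 with the highest mean level in the salinity and heat libraries, 48 were called lower in the combination than in control and 4 higher, beside 15.1% and 17.5% of all tested. Their median log2 fold change was -0.65, compared with 0.03 for all tested, and 86 of the 100 lay below 0. Of the 20 most abundant, 12 were called lower and none higher in the edgeR test, and 18 lay below 0. With total counts in place of scaling factors, 46 of the 100 were lower and 11 higher, and the median was -0.37 where that of all tested gene models was 0.32. The number called lower was 29 without replicate 1 of the combination and 27 without replicate 3, with 5 and 3 called higher, and it was 58 without replicate 2. Leaving out 1 library of the control, salinity or heat group gave between 33 and 57 called lower.

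Transcripts called in the comparison made up a large part of the leaf messenger RNA. The gene models called lower held 45.0%, 44.4% and 43.2% of the tested counts in control replicates 1, 2 and 3, and 26.2%, 27.4% and 26.6% in the combination. Those called higher held 5.96%, 6.58% and 6.59% in control and 18.7%, 16.6% and 18.2% in the combination. These shares describe the sets in the libraries that chose them. Which gene models are in the sets depends on the scaling. With total counts in place of scaling factors, 1545 gene models called lower held 37.8% ± 0.251 in control and 21.6% ± 1.16 in the combination, and 5423 called higher held 15.2% ± 0.931 and 31.3% ± 0.519 (mean ± SD, n = 3 each). Called without combination replicate 2, the set called lower held 50.8% ± 0.143 in control and 32.2% ± 1.92 in the combination, and the set called higher 4.13% ± 0.268 and 13.5% ± 1.23, with all 3 combination libraries measured. In libraries outside the comparison, the set called lower held 33.8% ± 0.634 in heat and 34.6% ± 2.96 in salinity, and the set called higher held 13.1% ± 0.698 in heat and 9.11% ± 1.59 in salinity (mean ± SD, n = 3 each). Both single stresses therefore lay between control and the combination in both sets, with no overlap with either. Choosing the sets by control and combination favours such a position. In bulk leaf tissue, fewer cells of a type and less RNA per cell cannot be told apart, and a share within a library falls when others rise.

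**Figure D2:**
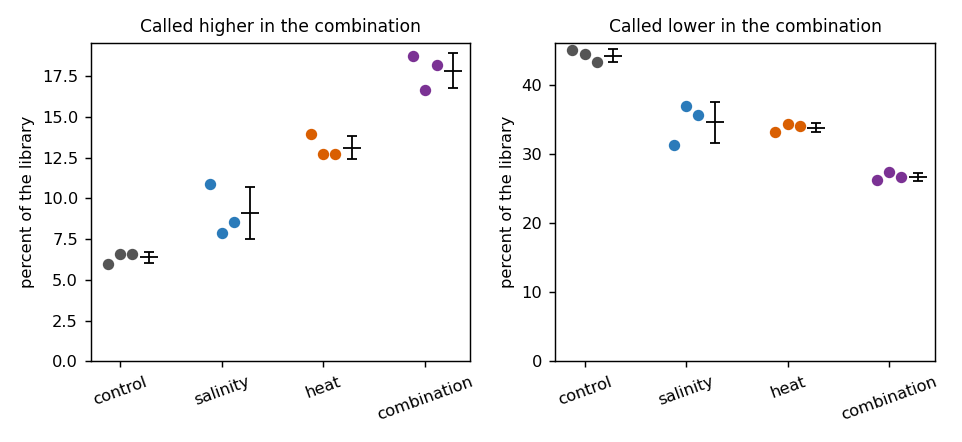
Percent of the counts of each library held by the gene models called higher (left) and lower (right) in the combination than in control. Each point is 1 library, and the bar and whiskers are the mean and SD of 3. The control libraries, between 43.2% and 45.0% for the set called lower, and the combination libraries, between 26.2% and 27.4%, lie at the ends, and the salinity and heat libraries lie between them.

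As a measure of how far the whole composition moved, the share of the counts that would have to be assigned to other gene models to turn one library into another was computed. Between a combination and a control library it was 21.4% in the median of 9 pairs, with a range of 18.3% to 23.1%. Between replicates it was 6.50% to 11.8% in the combination and 6.87% to 9.27% in control. The combination lay at a median of 17.1% from heat (12.7% to 24.9%) and 23.8% from salinity (18.8% to 32.5%). The overlap of the heat and salinity ranges came from replicate 2 of the combination. The control and salinity ranges overlapped without it too, since replicate 1 reached 23.1% from control and replicate 3 began at 22.5% from salinity. Replicate 2 lay at 17.1% to 24.9% from heat, 18.3% to 21.4% from control and 18.8% to 23.8% from salinity. Replicate 1 lay at 12.7% to 17.8% from heat, 22.1% to 23.1% from control and 26.2% to 32.5% from salinity. Replicate 3 had the same order as replicate 1, with heat at 14.6% to 20.8%, control at 20.8% to 21.7% and salinity at 22.5% to 28.6%.

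The transcripts with the largest change in absolute level show both sides of this shift. The IDs printed here are those with the largest rise and fall in mean CPM among calls whose mean reached 5 CPM and whose groups did not overlap, 2 in each direction. Separation of control and combination was thus a condition of the choice and adds no support to these changes. The number in the ID after Solyc is that of the chromosome in the naming scheme of the annotation. No function is given for them, since none of the sources used here annotates the IDs.

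Solyc07g041920.4.1, on chromosome 7, stood at 657, 1108 and 834 CPM in control replicates 1, 2 and 3 and at 8679, 7900 and 8795 CPM in the combination. All combination libraries lay far above all control libraries, and the ratio of the means was 9.76. On the log2 scale the change was 3.29 (SE 0.38; adjusted p = 8.12e-05, edgeR test). In heat it reached 12157, 11785 and 9515 CPM, and in salinity 304, 970 and 444 CPM. The combination was higher than salinity, by a log2 value of 3.88 (SE 0.39; adjusted p = 3.21e-05 in the edgeR test), where 44.5% of all tested gene models were called. It was not called against heat (log2 difference -0.40, SE 0.35, adjusted p = 0.372 in the edgeR test), a comparison with 40.3% of the tested gene models called.

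Solyc03g098780.2.1, on chromosome 3, stood at 325, 621 and 716 CPM in control and at 3754, 3631 and 3891 CPM in the combination. The groups were well separated, and the 3 combination libraries were also above all 9 others. The ratio of the means was 6.79 and the log2 fold change 2.76 (SE 0.43; adjusted p = 0.000557 in the edgeR test). Heat libraries held 2714, 2186 and 2322 CPM and salinity libraries 627, 1474 and 374 CPM. The difference from salinity was called (log2 2.19, SE 0.42, adjusted p = 0.00146), and the difference from heat was not (log2 0.64, SE 0.41, adjusted p = 0.219), both in the edgeR test.

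Solyc03g034220.3.1, also on chromosome 3, was the transcript with the largest loss. It held 26337, 32985 and 32775 CPM in control, and 11938, 15907 and 14389 CPM in the combination. Each combination library was below every control library. The control mean was 2.18 times that of the combination, and the log2 fold change was -1.12 (SE 0.26; adjusted p = 0.00536 in the edgeR test). It alone made up between 2.50% and 3.14% of a control library and between 1.47% and 1.66% of a combination library. Heat libraries were lower still, at 10312, 10823 and 11901 CPM, and salinity libraries ranged widely, at 31050, 60011 and 38469 CPM.

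Solyc02g085950.4.1, on chromosome 2, followed with 21361, 24747 and 25915 CPM in control and 11124, 14946 and 13631 CPM in the combination. This was the least certain of the 4 changes, at a log2 fold change of -0.86 (SE 0.25; adjusted p = 0.0212, edgeR test). That p rose to 0.0600 without control replicate 2, 0.0583 without control replicate 3, 0.0776 without combination replicate 1 and 0.0607 without combination replicate 3. Its level was 11074, 11754 and 12857 CPM in heat and 17404, 35517 and 24585 CPM in salinity. For both falling transcripts the combination was called lower than salinity, with log2 differences of -1.62 and -0.97 (adjusted p = 0.000496 and 0.00866 in the edgeR test), and was not called against heat, with log2 differences of 0.35 (SE 0.25) and 0.15 (SE 0.25). None of the 4 was called in the interaction contrast of the edgeR test, in which 8.94% of all tested gene models were called, with adjusted p between 0.831 and 0.955.

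**Figure D3:**
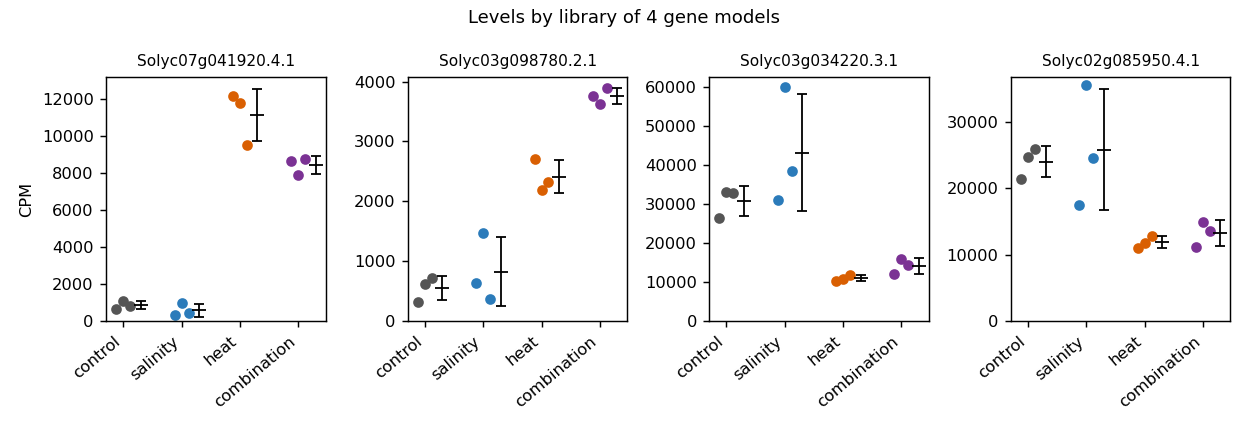
CPM of 4 gene models in each library, by group, with the mean and SD of 3 libraries as bar and whiskers. The first 2 panels show the gene models with the largest rise in mean CPM and the last 2 those with the largest fall. In all 4 panels the combination libraries (purple) lie nearer to the heat libraries (orange) than to the salinity libraries (blue) by group mean.

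The gene models with the largest fold increases were nearly silent in control. Of the 143 called gene models that rose at least 16-fold, 83 had 3 counts or fewer in the 3 control libraries together, and 25 reached a mean of 5 CPM over the 6 libraries. Their median level was lowest in control, at 0.0122 CPM, followed by 0.0766 CPM in salinity, 0.300 CPM in heat and 0.563 CPM in the combination. A fitted fold change against so few counts depends on the prior count of the model, so these gene models are better described by their levels. Of the 91 that fell at least 16-fold, 22 had 3 counts or fewer in the combination libraries together, and the median level ran the opposite way, from 1.58 CPM in control over 0.741 CPM in salinity and 0.121 CPM in heat to 0.0417 CPM in the combination. Both sets were chosen by their change between control and combination, which by itself puts these groups at the ends of both orders. Gene models near 0 counts in control also passed the count filter only through other groups. Complete switches at a substantial level were not found. No tested gene model lacked counts in at least 2 libraries of one group while reaching 5 CPM in all 3 of the other. With the limits set at 3 counts or fewer over a group and at least 1 CPM in each library of the other, 4 gene models were on in the combination and 2 were off. The 4 had at most 2 counts over the 3 control libraries, means between 1.65 and 4.26 CPM in the combination and means between 0.582 and 2.28 CPM in heat. The 2 had no count in any combination library and means of 1.67 and 2.71 CPM in control.

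Whether the combination moved toward heat or toward salinity was read from the difference of heat and salinity, since those libraries are not part of the combination or the control. Large and small changes differed in this. Among the 143 gene models that rose at least 16-fold, the heat mean was above the salinity mean in 124 (86.7%), compared with 53.7% of all tested. The same held for 385 of the 550 that rose 4-fold to 16-fold, for 51.3% of the 1296 that rose 2-fold to 4-fold, and for 39.0% of the 1632 that rose less. The decreases mirrored this. The heat mean was above the salinity mean in 14.3% of the 91 that fell at least 16-fold, in 24.5% of the 424 that fell 4-fold to 16-fold, in 48.3% of the 1118 that fell 2-fold to 4-fold, and in 65.6% of the 1485 that fell less. Strongly changed gene models thus mostly had the sign of heat minus salinity, and weakly changed ones more often had the opposite sign. The size classes also differed in level. The median control level was 0.0122 CPM for rises of at least 16-fold and 10.5 CPM for those under 2-fold. For falls it was 1.58 CPM and 26.4 CPM. Size of change and level thus cannot be told apart here. Across everything tested, Pearson's r between the 2 differences was 0.158 and Spearman's rho 0.0191. All libraries share one set of scaling factors and one estimate of the spread, and gene models are not independent replicates. The size classes were formed only with TMM factors and all libraries. Total counts moved the median log2 fold change over everything tested from 0.03 to 0.32, which matters most for the weak changes. Whether their sign holds under another scaling was not tested.

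Read the other way, transcripts much lower in heat than in salinity included more decreases and fewer increases than all tested gene models. Most of them were not called in the combination against control. Those much higher in heat had shares near the background with all libraries and TMM factors, but not in every alternative. Heat and salinity differed in 68.4% of the tested gene models. Of the 1101 called at least 4-fold lower in heat than in salinity, 425 (38.6%) were called lower in the combination than in control and 49 (4.45%) higher, beside 15.1% and 17.5% of all tested, with a median log2 fold change of -0.89. Of the 2155 called at least 4-fold higher in heat, 346 (16.1%) were called higher in the combination and 268 (12.4%) lower, which is near the background, with a median of -0.10. For the first set, 364 were lower and 84 higher with total counts, against 7.46% lower and 26.2% higher among all tested. With a control or combination library left out, between 324 and 510 of the first set were called lower. The number called higher in that set was 25 without control replicate 1, 23 without control replicate 2 and 28 without combination replicate 2. In the second set the number called lower was 106 without control replicate 1, 170 without control replicate 2 and 127 without combination replicate 3, and the sign of the median changed to 0.06 without control replicate 1, to 0.00133 without combination replicate 2 and to 0.20 with total counts.

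**Figure D4:**
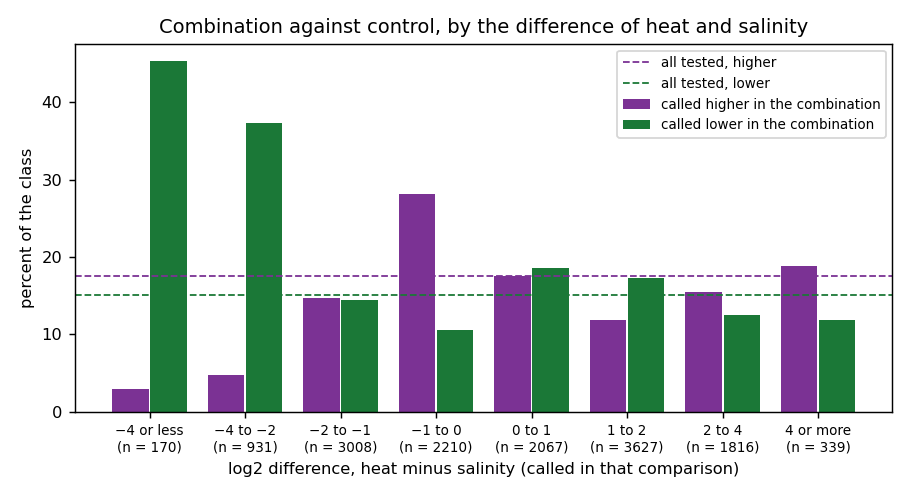
Percent of gene models called higher (purple bars) and lower (green bars) in the combination than in control, by the log2 difference of heat minus salinity among gene models called in that comparison, with the number in each class below its bars. Dashed lines are the shares of all tested gene models, 17.5% higher and 15.1% lower. The green bars of the 2 classes lowest in heat, at 45.3% and 37.4%, stand far above their line, and the classes highest in heat lie near both lines. In the class from -1 to 0, slightly lower in heat, the purple bar is above its line at 28.1% and the green bar below its line at 10.5%.

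Called gene models were found on every chromosome at a similar rate. The share called ranged from 29.6% of 1376 tested on chromosome 11 to 34.9% of 2185 on chromosome 3, around the 32.5% of all tested. Chromosome 11 had the smallest share called lower, at 11.8%, and chromosome 3 the largest, at 17.3%. Increases ranged only from 15.5% on chromosome 4 to 18.6% on chromosomes 5 and 9. The 44 tested gene models not assigned to a chromosome are left out of these ranges.

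Calls of neighbouring gene models were also compared, as a description with no test. In the order of the IDs along a chromosome, the next tested gene model after one called higher was itself called higher in 22.2% of 3617 cases, compared with 17.5% of all tested. After one called lower the next was called lower in 18.3% of 3111 cases, compared with 15.1%. At larger distances the shares were lower than for direct neighbours. For calls higher they were 18.3%, 18.6%, 17.4%, 17.6% and 17.7% at 2, 5, 10, 50 and 200 tested places, and for calls lower 16.9%, 15.9%, 14.9%, 16.3% and 14.7%. The longest run of increases, on chromosome 10, and the longest run of decreases, on chromosome 2, had 7 gene models each, and were singled out after their values were seen. The run on chromosome 2 summed to 39717, 36890 and 46285 CPM in control replicates 1, 2 and 3, and to 12882, 22706 and 16867 CPM in the combination, with log2 fold changes between -3.31 and -0.65. No combination library reached the lowest control library, which choosing a run of calls lower favours and which adds no support. The run held 16456, 15496 and 19554 CPM in heat and 25733, 52760 and 34572 CPM in salinity. The run on chromosome 10 rose from 42.7, 45.2 and 39.3 CPM in control to 240, 171 and 219 CPM in the combination, with 156, 198 and 155 CPM in heat and 63.0, 65.0 and 68.8 CPM in salinity. Its log2 fold changes lay between 0.53 and 7.24, and 1 member carried most of the rise. Without it the mean sum of the run was 34.6 CPM in control, and in the combination it was 79.4 CPM. Adjacent gene models can be near-identical copies, and how reads shared between copies were counted is not given in the sources used here, so the members of a run are not independent measurements.

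**Figure D5:**
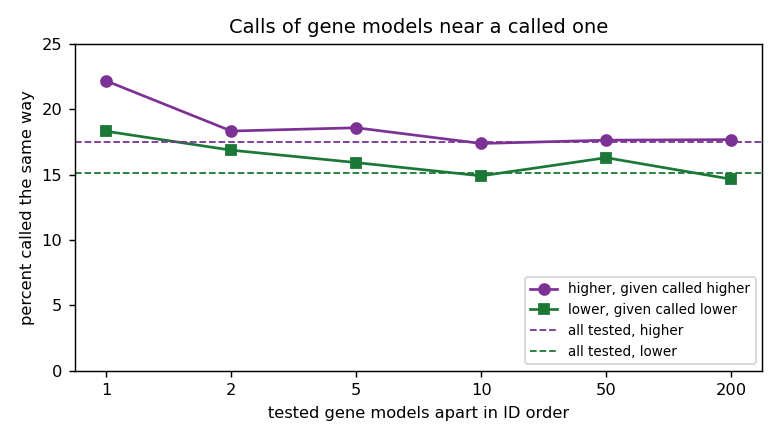
Percent of gene models called higher, given that the gene model a number of tested places before it in ID order was called higher (purple), and the same for calls lower (green). Dashed lines are the shares of all tested gene models. The shares are 22.2% and 18.3% for direct neighbours, and between 17.4% and 18.6% and between 14.7% and 16.9% at 2 to 200 places.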

How the data were processed

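The authors deposited counts, as whole numbers for each gene model in each library, without normalization. Per the submitters' processing notes, Trimmomatic 0.33 and Bowtie2 2.3.4 were used. The counting program, genome build, strandedness and treatment of reads with several matches are not given in the sources used here, so counts of near-identical, overlapping or antisense gene models are uncertain. Counts of 1 to 20 were even in 66.1% to 69.1% of cases in the control and combination libraries, so both mates of a pair may have been counted. Pairs of replicates differed by more than sampling noise, with a chi-square per degree of freedom of at least 52.1.

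Gene models were filtered with filterByExpr, which left 20717, and fitted in edgeR 4.0.16 (R 4.3.3) with TMM factors and the 4 groups over all 12 libraries. The approximate SE of a log2 fold change is its size over the square root of F. For correlations, a prior count of 2 was added before CPM were put on the log2 scale. On simulated data with 200 changed of 20717 gene models in the combination against control, 28.1% of the changes of log2 size 1 and 80.8% of those of size 2 were called, with 3 false calls. Far fewer gene models were changed than were called in the real data, and in random directions. These shares therefore do not carry over to the real data, and the simulation does not test the scaling. Comparisons, sets and alternatives were chosen with earlier results of these data known. Heat against salinity, and the sets taken from it and from the most abundant gene models, were added after the data were seen. The rule for naming gene models asked for annotated names. As the reference table matched 0 of 34075 IDs, the gene lists, the promoter motifs and most of that rule could not be applied, and only the 2 largest rises and falls in mean CPM are named. Same-numbered control and combination libraries are not stated to be paired. All 12 libraries were used.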

Additional observations from a re-analysis of the deposited data

How the results depend on the processing

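Requiring a log2 change of at least 1 lowers counts by construction and left 3622 calls for the combination against control (1989 higher, 1633 lower), 4828 against salinity and 4019 against heat. The DESeq2 1.42.0 Wald test gave 3409 interaction calls and total counts 1103, compared with 1852. Total counts gave 1545 calls lower in the combination than in control.

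With 1 of the 12 libraries left out, the calls of the combination against control lay between 4615 and 7230 (2442 to 3851 higher and 2170 to 3386 lower), those against salinity between 6587 and 9558, those against heat between 4900 and 8931, and interaction calls between 806 and 2066. Among the 100 most abundant gene models, 27 to 58 were lower and 3 to 6 higher. Total counts gave 11 higher. Of gene models at least 4-fold lower in heat than in salinity, 324 to 510 were lower and 23 to 67 higher, and total counts gave 84 higher. Of those at least 4-fold higher in heat, 106 to 345 were lower and 263 to 363 higher, and total counts gave 91 lower. The cause of these shifts was not tested.

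A replicate block gave 6377 calls in the combination against control. Deviations of same-numbered control and combination libraries from their group means correlated at 0.265, -0.200 and -0.238. With 3 libraries a group, these values cannot decide whether the numbers mark a pairing. The log2 fold changes of the 4 named gene models kept their direction in all 20 alternatives. Their choice required groups without overlap, and leaving out a salinity or heat library hardly alters these values. The kept direction was thus largely set by the choice and is no test of it. Calls per gene list were not run, for lack of names. Depth limits the gene models near 0 counts in one group, whose fold changes are uncertain.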
